A study of Mus musculus with 6 samples.

Results

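Ptpn11, Sos1, Sos2, Shoc2, Ppp1cb, Lztr1, Cbl, Nf1, Rasa1 and Rasa2 encode proteins that act on RAS or on its coupling to RAF and that are linked to Noonan syndrome and related disorders of RAS signaling. These 10 genes were chosen by name, and each matched 1 of the 54532 Ensembl gene IDs in the expression table. Primary cardiomyocyte cultures were profiled by RNA-seq. The neonatal mice they came from carry a Rit1 gene that produces the disease variant RIT1 M90I once Cre has acted on it. On day 3 post-isolation, cultures received adenovirus encoding GFP (AdGFP, 3 samples, genotype Rit1 +/+) or GFP-Cre (AdCre, 3 samples, genotype Rit1 M90I/+). All 6 samples thus came from cells with the inducible locus and carried adenovirus and GFP, so that Cre and RIT1 M90I arrived together and cannot be told apart. Per the study's methods the neonates were a few days old and cells were plated at about a heart per well. The sources do not say whether the samples of a group came from separate hearts, so the p-values measure the spread between these samples.

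RAS GTPases cycle between an inactive GDP-bound and an active GTP-bound form. Guanine nucleotide exchange factors such as SOS1 and SOS2 load RAS with GTP, GTPase-activating proteins (GAPs) such as neurofibromin return it to the GDP form, and the phosphatase SHP2 (encoded by Ptpn11) promotes activation downstream of receptors. Below RAS, SHOC2 and the PP1 catalytic subunit PPP1CB form a complex with MRAS that removes an inhibitory phosphate from RAF, and LZTR1 is an adaptor of a CUL3 ubiquitin ligase that directs RIT1 and other RAS proteins to degradation. Variants in some of these genes cause heart defects and hypertrophic cardiomyopathy seen in this group of syndromes.

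The upstream sequences of 3 of these genes are shown because they are the gene with the highest AdCre level (Ptpn11) and those whose levels did not overlap between groups (Ppp1cb and Rasa2). They were taken from the RefSeq table (GRCm38.p6) and end before both the RefSeq and the GENCODE start of the gene. Capitals mark GC boxes (GGGCGG), ETS motifs (CCGGAAG) and cyclic AMP response elements (TGACGTCA) on either strand.
Ptpn11, chr5:121191398-121191647, minus strand: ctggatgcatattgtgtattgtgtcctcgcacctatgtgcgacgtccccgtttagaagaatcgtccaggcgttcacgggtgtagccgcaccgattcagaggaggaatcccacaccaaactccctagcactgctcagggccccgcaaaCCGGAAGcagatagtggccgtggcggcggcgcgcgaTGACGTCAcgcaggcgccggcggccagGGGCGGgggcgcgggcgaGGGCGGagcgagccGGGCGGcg
Ppp1cb, chr5:32458720-32458842, plus strand: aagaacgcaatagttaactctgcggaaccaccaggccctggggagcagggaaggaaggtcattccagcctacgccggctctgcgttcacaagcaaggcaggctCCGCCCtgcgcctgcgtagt
Rasa2, chr9:96631618-96631753, minus strand: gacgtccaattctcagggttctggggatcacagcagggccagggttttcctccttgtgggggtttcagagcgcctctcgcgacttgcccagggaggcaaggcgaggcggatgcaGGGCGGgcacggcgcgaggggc
The Ptpn11 stretch held 5 matches, and the other stretches held 1 match each.

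Across the 250 bases before the RefSeq start, all 10 genes had a window in the table, and Shoc2 had an additional one. Their GC content lay between 64.0% and 82.8%, against a median of 52.4% over the 32851 windows of all genes. A GC box was found in 8 of the 10 genes (8 of their 11 windows) and in 32.7% of all windows. The ETS motif was found in 4 genes (Ptpn11, Nf1, Rasa1 and Shoc2), in 4 of their 11 windows, and in 6.91% of all windows. The cyclic AMP response element was found only in Ptpn11 among the 10 and in 1.55% of all windows. The AP-1 motif (TGANTCA) was found in none of these windows and in 6.75% of all windows. These are matches of letters, the shares were not matched for GC content, and binding was not measured.

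None of the 10 regulators changed significantly at the RNA level upon Cre delivery. In limma, 0 of 10 passed an adjusted p of 0.05, where 0.00725% of the 13794 genes tested passed (1 gene). With the replicate number as a block, which called 6.15% of all genes tested (2.64% with higher and 3.51% with lower levels in AdCre), 0 of 10 passed again. The whole-table count of that fit was unstable, with 848 genes as fitted, 149 without pair 2, 1 without pair 3 and 0 without the trend, and on the TPM scale its calls were 538 higher and 337 lower. At an unadjusted p under 0.05, 1 of 10 (Ppp1cb) was below the threshold with and without the block, against 24.7% and 10.2% of all genes. On recovered reads tested with voom, 0 of 10 passed, as did 0 of all 13761 genes. The AdCre samples lay wholly above the AdGFP samples for 1 of 10 (Rasa2) and wholly below them for 1 of 10 (Ppp1cb), against 7.36% and 8.02% of all genes. The level pointed the same way in all 3 pairs of same-numbered samples for 5 of 10 (Sos2, Rasa1, Rasa2, Ppp1cb and Lztr1), against 48.4% of all genes. Each of these shares was near or below that of the whole table.

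The intervals also bound how large a change could have gone unseen. The 95% interval of the fold change stayed within 2-fold in either direction for all 10 regulators and within 1.5-fold for 7 of them. The median change was -0.07 on the log2 scale over the 10 genes and -0.00 over all genes tested. The median size of the change, sign set aside, was 0.13 on the log2 scale against 0.17 for all genes. The median within-group SD was 0.17 against 0.24 on the same scale. Of the 10 estimates, 3 were above 0 and 7 below 0, and 4 of the small ones below 0 (Sos1, Ptpn11, Shoc2 and Lztr1) were above 0 when values were rescaled to TPM, a scaling that moved the median of all genes from -0.00 to 0.09.

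**Figure D1:**
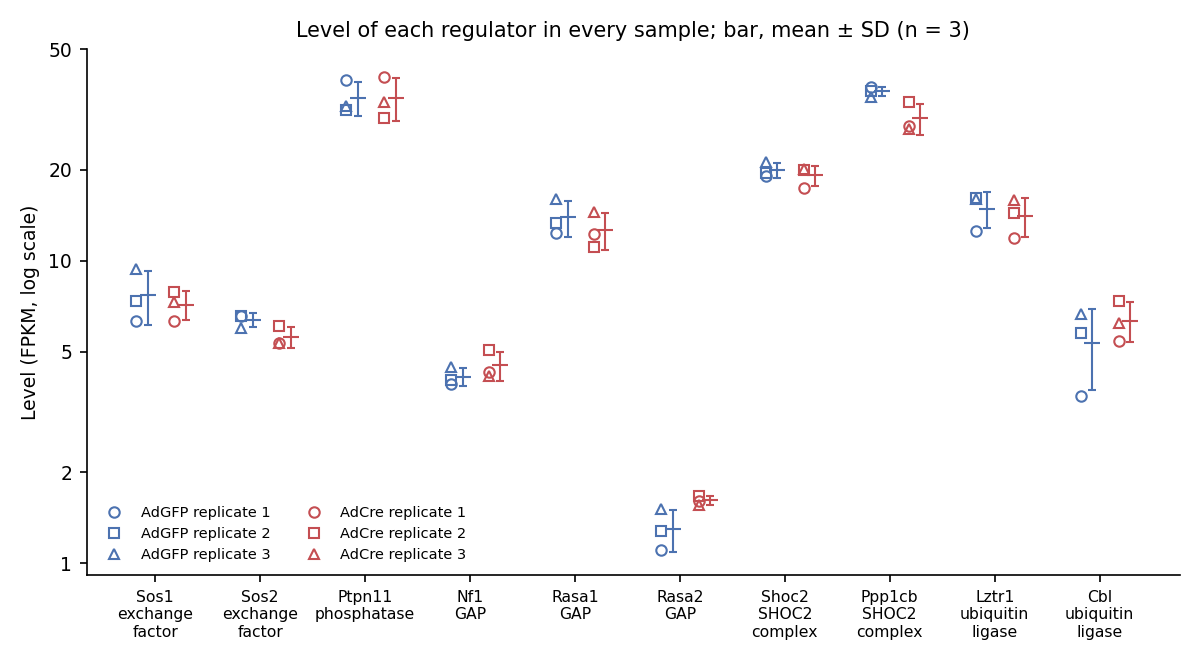
Level of each regulator in FPKM (log axis) in the 3 AdGFP (blue) and 3 AdCre (red) samples, with the marker shape giving the replicate number and the bar the mean ± SD. The groups separate for Ppp1cb and Rasa2 and overlap for the other 8 genes.

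The levels were compared in FPKM, which is per kilobase of exon. In AdGFP samples the order by mean level was Ppp1cb, Ptpn11, Shoc2, Lztr1, Rasa1, Sos1, Sos2, Cbl, Nf1 and Rasa2. The ranges overlapped for 5 neighbouring pairs of that order, namely Ppp1cb with Ptpn11, Lztr1 with Rasa1, Sos1 with Sos2, Sos2 with Cbl, and Cbl with Nf1. In AdCre samples, Ptpn11 stood first and Ppp1cb second, Cbl stood above Sos2, and 4 neighbouring pairs overlapped. The highest and lowest mean levels differed by 28.0-fold in AdGFP and by 21.4-fold in AdCre. Rasa2 was lowest and stood apart from its neighbour Nf1 in both groups. This order depends in part on length, since the FPKM of Sos1 and Shoc2 rest on 8919 and 4203 bases against 10594 and 5579 in the annotation used here. At annotated length Shoc2 also overlapped Lztr1 in both groups, Sos1 stood below Cbl in AdCre, and 6 and 5 neighbouring pairs overlapped in AdGFP and AdCre.

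The exchange factors SOS1 and SOS2 are close relatives recruited to receptors by the adaptor GRB2. Sos1 (chr17:80393751-80480453, minus strand) had levels of 6.33, 7.34 and 9.39 FPKM in AdGFP replicates 1 to 3 and 6.30, 7.87 and 7.31 FPKM in AdCre replicates 1 to 3. The AdCre values lay inside the AdGFP range apart from replicate 1, which fell just below it. In limma the groups differed by -0.09 on the log2 scale (SE 0.17, 95% interval -0.50 to 0.33, limma adjusted p = 0.930), but it was 0.00 on the TPM scale and 0.06 without AdGFP replicate 3.

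Sos2 (chr12:69583762-69681852, minus strand) was at 6.57, 6.54 and 5.97 FPKM in AdGFP and at 5.34, 6.09 and 5.35 FPKM in AdCre. Its level was lower in AdCre in all 3 pairs, while the groups overlapped through AdGFP replicate 3 and AdCre replicate 2. The log2 difference of -0.18 (SE 0.12, 95% interval -0.47 to 0.10) did not pass (limma adjusted p = 0.681). Over the alternatives without the block it ran from -0.25 to -0.097. The ratio of Sos1 to Sos2 ran from 0.964 to 1.57 in AdGFP and from 1.18 to 1.37 in AdCre, so the AdCre ratios lay within the AdGFP range.

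SHP2, the product of Ptpn11 (chr5:121130533-121191397, minus strand), is the phosphatase most often altered in Noonan syndrome. Its level was 39.5, 31.5 and 32.6 FPKM in AdGFP and 40.6, 29.7 and 33.4 FPKM in AdCre. Replicate 1 was the highest sample and replicate 2 the lowest in both groups. The groups differed by -0.00 on the log2 scale (SE 0.16, 95% interval -0.38 to 0.37, limma adjusted p = 0.999), and it was 0.09 on the TPM scale, 0.10 without either AdGFP replicate 1 or AdCre replicate 2, and 0.02 without AdCre replicate 3.

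Among the GAPs, Nf1 encodes neurofibromin, Rasa1 encodes p120 RasGAP, and Rasa2 encodes a GAP that binds membranes. Nf1 (chr11:79339693-79581612, plus strand) was at 3.92, 4.04 and 4.47 FPKM in AdGFP and at 4.30, 5.08 and 4.16 FPKM in AdCre. The groups overlapped, AdCre replicate 2 being the highest sample. The estimate was 0.12 on the log2 scale (SE 0.14, 95% interval -0.20 to 0.44, limma adjusted p = 0.847), and it was 0.03 without AdCre replicate 2.

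Rasa1 (chr13:85214780-85289130, minus strand) was at 12.4, 13.3 and 16.0 FPKM in AdGFP and at 12.2, 11.1 and 14.5 FPKM in AdCre. Each AdCre sample was below its same-numbered AdGFP sample, yet AdCre replicate 3 exceeded AdGFP replicates 1 and 2. The fitted difference was -0.14 on the log2 scale (SE 0.15, 95% interval -0.51 to 0.22, limma adjusted p = 0.840), and it was -0.04 without AdGFP replicate 3 and -0.05 without AdCre replicate 2. The ratio of Rasa1 to Nf1 was 3.35 ± 0.216 in AdGFP and 2.84 ± 0.657 in AdCre (SD, n = 3 each). The ranges of that ratio overlapped, and it was lower in AdCre in all 3 pairs.

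Rasa2 (chr9:96539300-96631617, minus strand) was at 1.10, 1.28 and 1.51 FPKM in AdGFP and at 1.61, 1.67 and 1.56 FPKM in AdCre. Every AdCre sample was above every AdGFP sample, with a narrow gap between AdGFP replicate 3 and AdCre replicate 3. The differences within pairs 1 to 3 were 0.51, 0.36 and 0.04 on the log2 scale. The log2 difference of the groups was 0.30 (SE 0.19, 95% interval -0.15 to 0.75) and did not pass (limma adjusted p = 0.668), and it was 0.20 without AdGFP replicate 1. The exact two-sided permutation test gave p = 0.1, the smallest that 3 samples against 3 allow. Rasa2 rested on 432 to 818 reads per sample, the fewest of the 10 genes, which leaves a counting error of 4.81% of its value in the shallowest case.

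SHOC2 is the scaffold of the RAF-activating phosphatase complex, and PPP1CB supplies its catalytic activity. Shoc2 (chr19:53944306-54033133, plus strand) was at 19.0, 19.5 and 21.1 FPKM in AdGFP and at 17.4, 19.9 and 20.1 FPKM in AdCre. The groups overlapped, and only AdCre replicate 1 was below the AdGFP range. The groups differed by -0.06 on the log2 scale (SE 0.11, 95% interval -0.33 to 0.21, limma adjusted p = 0.932), and it was 0.03 on the TPM scale and 0.01 without AdCre replicate 1.

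Ppp1cb (chr5:32458843-32517433, plus strand) was at 37.5, 36.5 and 34.9 FPKM in AdGFP and at 27.8, 33.5 and 27.3 FPKM in AdCre. Every AdCre sample was below every AdGFP sample, with AdCre replicate 2 closest to the controls. The differences within pairs 1 to 3 were -0.43, -0.12 and -0.35 on the log2 scale.

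The group difference for Ppp1cb was -0.30 on the log2 scale (SE 0.12), a fold change of 0.811 (95% interval 0.664 to 0.991). The unadjusted p of 0.0428 in limma did not survive adjustment (adjusted p = 0.479, and 0.321 to 0.963 over the alternatives). With the block the adjusted p was 0.105, and it was 0.0826 to 0.301 over the alternatives of that fit. The exact two-sided permutation test gave p = 0.1, the smallest possible here. An annotated gene on the same strand overlaps 17.5% of the Ppp1cb exon bases, and 16.4% of the 50-base words of its transcripts also occur in transcripts of other genes, so a part of its reads may be split or dropped in counting.

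PPP1CB is 1 of 3 PP1 catalytic subunits, beside those encoded by Ppp1ca and Ppp1cc. Ppp1cb made up 13.0% ± 2.32 of their summed FPKM in AdGFP and 10.2% ± 2.36 in AdCre (SD, n = 3 each), and the ranges of these shares overlapped. Within pairs the share was lower in AdCre in 3 of 3, from 10.6% to 7.79%, 13.2% to 12.5% and 15.2% to 10.4%. The FPKM of Ppp1ca rest on 1379 bases against 2520 in the annotation, and at annotated length the shares were 19.4% ± 3.11 and 15.6% ± 3.32, again with overlap. Ppp1ca was at 266, 202 and 160 FPKM in AdGFP and at 281, 197 and 199.6 FPKM in AdCre. Its groups overlapped (log2 difference 0.12, limma adjusted p = 0.930), but 16.5% of its exon bases are overlapped by genes on the opposite strand, and the estimate was -0.06 without AdGFP replicate 3 and -0.05 without AdCre replicate 1. Ppp1cc had a log2 difference of 0.01 (limma adjusted p = 0.998), and 40.0% of its 50-base words are shared with other transcripts, so its level is uncertain.

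LZTR1 and CBL are both involved in ubiquitination, LZTR1 of RIT1 and RAS proteins through CUL3 and CBL of activated receptors. Lztr1 (chr16:17508688-17526333, plus strand) was at 12.5, 16.1 and 16.0 FPKM in AdGFP and at 11.9, 14.4 and 15.9 FPKM in AdCre. Replicate 1 was lowest in both groups, and the ranges overlapped although each pair was lower in AdCre. The log2 difference was -0.08 (SE 0.16, 95% interval -0.46 to 0.30, limma adjusted p = 0.931), and it was 0.01 on the TPM scale and 0.04 without AdCre replicate 1.

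Cul3, which encodes the scaffold of the LZTR1 ligase, had a mean of 28.1 ± 1.17 FPKM in AdGFP and 25.7 ± 1.67 FPKM in AdCre (SD, n = 3 each). Its ranges overlapped, and the log2 difference was -0.13 (limma adjusted p = 0.766). Rit1, the substrate and the engineered gene, had a mean of 8.55 ± 0.774 FPKM in AdGFP and 9.19 ± 0.351 FPKM in AdCre. The level of Rit1 overlapped between the groups (log2 difference 0.11, limma adjusted p = 0.840, and 0.03 without AdGFP replicate 1). Both alleles count toward these gene-level values, which therefore do not check the recombination.

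Cbl (chr9:44142976-44234049, minus strand) had the largest SE of the 10 regulators. Its level was 3.58, 5.77 and 6.65 FPKM in AdGFP and 5.43, 7.33 and 6.24 FPKM in AdCre. The groups overlapped, and AdGFP replicate 1 was well below the other 5 samples. The log2 difference was 0.28 (SE 0.24, 95% interval -0.30 to 0.86, limma adjusted p = 0.784), and it was 0.02 without AdGFP replicate 1.

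**Figure D2:**
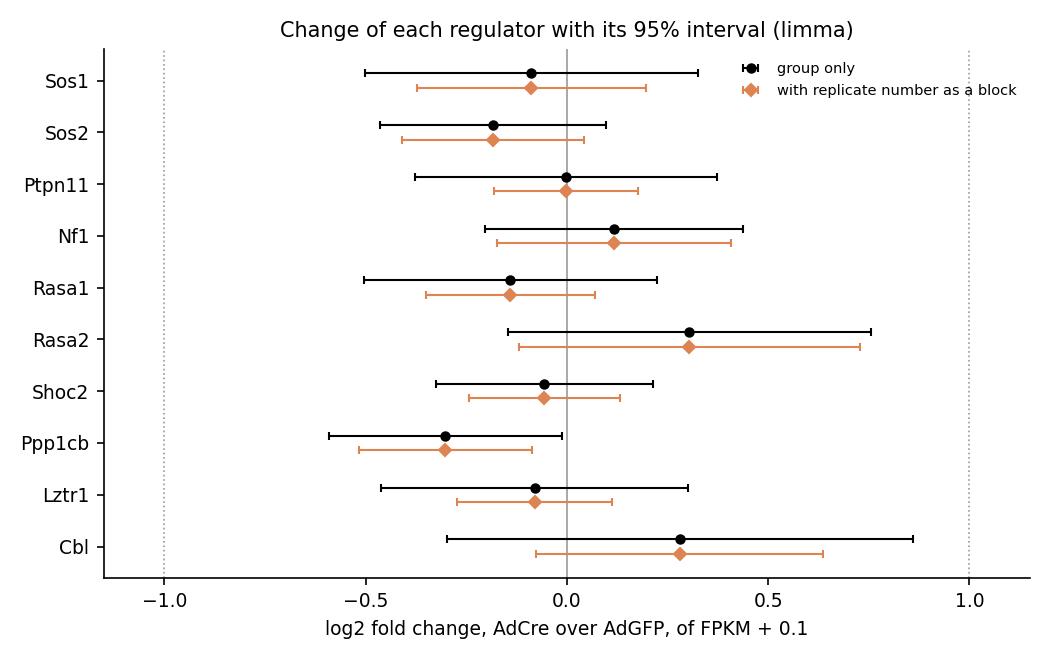
The log2 fold change of each regulator (AdCre over AdGFP, of FPKM + 0.1) with its 95% interval from limma, without (black circles) and with (orange diamonds) the replicate number as a block. Dotted lines stand at 2-fold in either direction, and all 10 intervals lie between them.

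**Figure D3:**
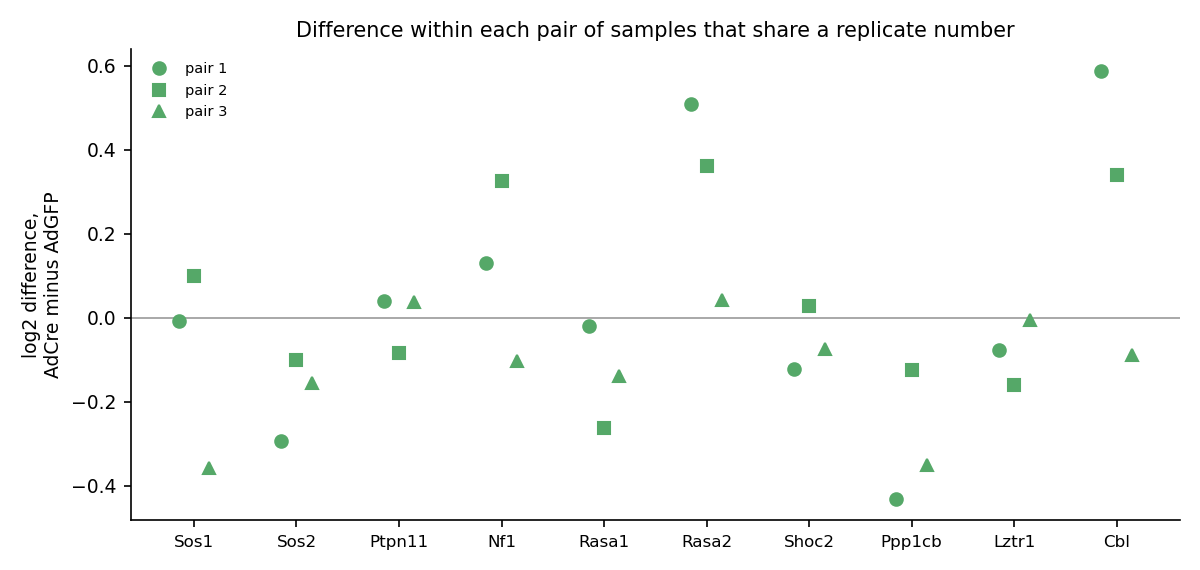
The log2 difference (AdCre minus AdGFP, of FPKM + 0.1) within each pair of samples that share a replicate number. Rasa2 lies above 0 in all 3 pairs, and Sos2, Rasa1, Ppp1cb and Lztr1 lie below 0 in all 3, with 1 pair close to 0 for Rasa2, Rasa1 and Lztr1.

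Among these regulators, exchange factors were set against GAPs as the summed FPKM of Sos1 and Sos2 over that of Nf1, Rasa1 and Rasa2. This ratio was 0.741, 0.746 and 0.699 in AdGFP and 0.643, 0.784 and 0.625 in AdCre. The means were 0.729 ± 0.026 and 0.684 ± 0.087 (SD, n = 3 each), and the AdGFP values lay inside the AdCre range. With recovered reads per annotated kilobase the means were 0.666 and 0.623. Exchange factors and GAPs outside these regulators were left out of this ratio. Among them Rasa3 had means of 13.4 FPKM in AdGFP and 20.6 FPKM in AdCre, without overlap of the groups. The ratio therefore depends on the GAPs chosen, and its value with Rasa3 included was not computed.

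A list of 28 other RAS regulators (exchange factors, GAPs, adaptors, a phosphatase, ubiquitin ligase components and SHOC2 partners) was compared in the same way. Of these, 22 were tested, 12 with estimates above 0 and 10 below, with a median of 0.02 on the log2 scale. The 6 genes not tested had group means between 0.00363 and 0.280 FPKM, and 4 of them were exchange factors. None of the 22 passed in limma without the block, 3 had an unadjusted p under 0.05 (10.2% of all genes did), and none passed with voom on recovered reads (0 of all genes). With the block, 2 of 22 passed, Rasa3 and Gab1, against 6.15% of all genes, and none passed when that fit was run without a filter or without the trend.

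Rasa3, which encodes a GAP of the same family as Rasa2, was at 11.6, 14.3 and 14.5 FPKM in AdGFP and at 18.9, 18.8 and 24.0 FPKM in AdCre. All AdCre samples were above all AdGFP samples. The log2 difference was 0.61 (SE 0.15, 95% interval 0.25 to 0.97), with a limma adjusted p of 0.291 without the block and 0.0293 with it. With the block and without pair 1, 2 or 3, the adjusted p was 0.0458, 0.0578 and 0.136, and it was 0.0928 without a filter and 0.0915 without the trend. Of the GAPs on this list, 6 were tested and 5 had estimates above 0.

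Gab1, which encodes a docking protein that recruits SHP2, was at 13.1, 15.2 and 16.7 FPKM in AdGFP and at 9.17, 12.3 and 10.0 FPKM in AdCre. All AdCre samples were below all AdGFP samples. The log2 difference was -0.51 (SE 0.15, 95% interval -0.88 to -0.15), with a limma adjusted p of 0.341 without the block and 0.0485 with it. With the block the adjusted p was 0.0780 on the TPM scale, 0.131 without a filter, 0.120 without the trend, and 0.0774, 0.0911 and 0.182 without pair 1, 2 or 3. Genes on the opposite strand overlap 5.23% of the Gab1 exon bases.

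Cblb, a relative of Cbl, had a mean of 5.99 ± 0.0669 FPKM in AdGFP and 4.90 ± 0.426 FPKM in AdCre without overlap of the groups (log2 difference -0.29, limma adjusted p = 0.487). The adaptor gene Shc1 had a mean of 24.8 ± 4.39 FPKM in AdGFP and 30.1 ± 2.59 FPKM in AdCre (log2 difference 0.29, limma adjusted p = 0.618, and a log2 difference of 0.15 without AdGFP replicate 1). Its ranges overlapped, and it passed only with the block and voom together (adjusted p = 0.0432). Grb2, which encodes the adaptor that carries SOS1, had a mean of 38.6 ± 1.71 FPKM in AdGFP and 33.9 ± 2.87 FPKM in AdCre (log2 difference -0.19, limma adjusted p = 0.655).

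**Figure D4:**
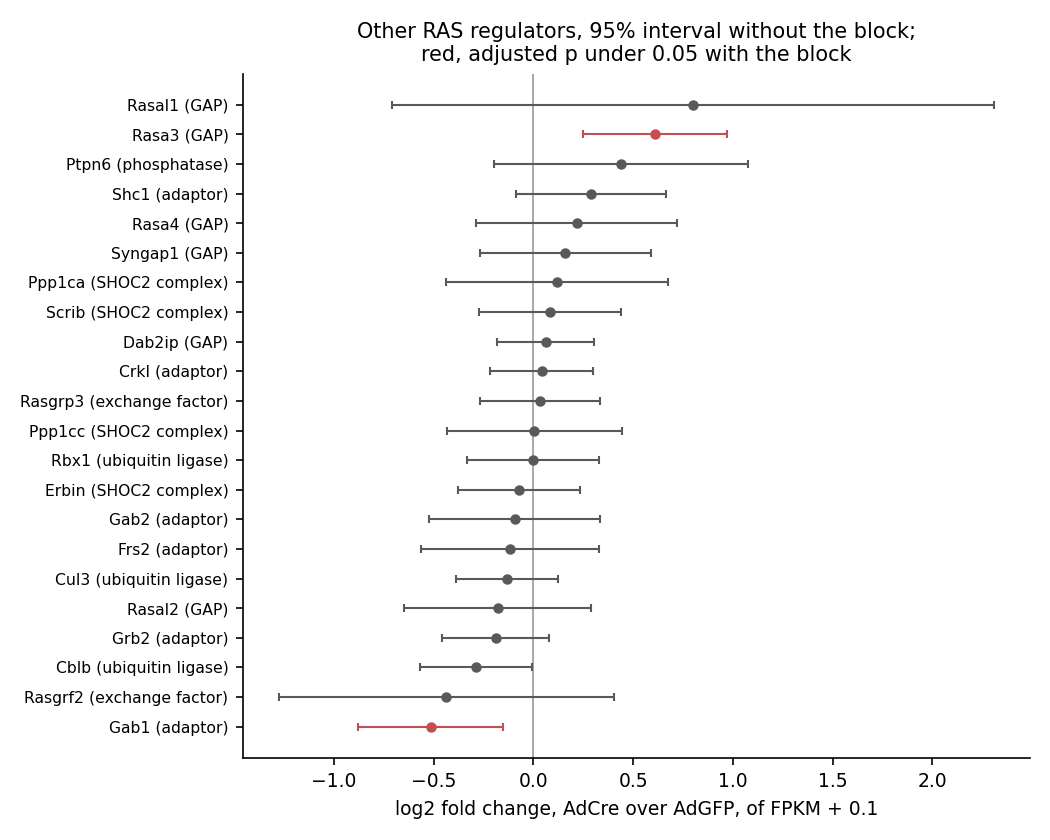
The log2 fold change (AdCre over AdGFP, of FPKM + 0.1) of the 22 other RAS regulators tested, with 95% intervals from limma without the block. Red marks the genes that passed an adjusted p of 0.05 with the block, Rasa3 at 0.61 and Gab1 at -0.51.

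The GTPases on which these regulators act were compared next. The estimates for Nras, Hras and Mras were 0.05, 0.13 and 0.08 on the log2 scale (limma adjusted p = 0.944, 0.893 and 0.931), and their ranges overlapped. Each of these estimates fell below 0 without 1 sample (AdCre replicate 1 for Nras and Hras, AdCre replicate 3 for Mras), at -0.01, -0.01 and -0.05. Of the 7 RAS-family GTPases, 0 passed in limma without the block (1 at an unadjusted p under 0.05), and Rras passed with it, against 6.15% of all genes (log2 difference -0.58, adjusted p = 0.0476, and 0.0101 to 0.173 over the alternatives of that fit).

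Downstream, 8 of 9 genes of the RAF-MEK-ERK cascade were tested, with 3 estimates above 0, 5 below and a median of -0.09. None passed in limma with or without the block, and 0 had an unadjusted p under 0.05 without the block and 3 with it, against 10.2% and 24.7% of all genes. Of the Sprouty and Spred genes, which encode feedback inhibitors of the pathway, 6 of 7 were tested, with 4 above 0, 2 below and a median of 0.15. None passed with or without the block, and 2 and 4 of the 6 had an unadjusted p under 0.05 without and with it, against the same shares of all genes. Over the other settings of the blocked fit, 0 to 2 of the 6 passed. Among the 22 other regulators, 7 RAS-family and 8 cascade genes, 3, 1 and 4 did not overlap between the groups, against 3 of 6 Sprouty and Spred genes and 15.4% of all genes tested.

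Markers of the cell types that such cultures can hold were also compared. All 11 cardiomyocyte markers were detected, and their summed level ran from 4540 to 7547 FPKM in AdGFP and from 2905 to 4983 FPKM in AdCre. Each of the 11 had an estimate below 0, with a median of -0.78 on the log2 scale, while 0 passed in limma without the block (5 at an unadjusted p under 0.05, against 10.2% of all genes) and 7 with it, against 6.15% of all genes. Over the other settings of the blocked fit, 0 to 9 of the 11 passed, with 0 without a filter, without the trend or without pair 3. In bulk samples, fewer cells of a type and less RNA per cell cannot be told apart.

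Fibroblast markers summed to between 2673 and 4729 FPKM in AdGFP and between 2390 and 3432 FPKM in AdCre, with estimates below 0 for 7 of 9, and 4 passed with the block (3 lower and 1 higher), where 0 to 4 did over its other settings. Endothelial markers summed to between 38.3 and 69.4 FPKM in AdGFP and between 52.0 and 91.7 FPKM in AdCre, with estimates above 0 for 7 of 8, and 2 passed with the block, where 0 to 5 did over its other settings. Macrophage markers summed to between 12.9 and 54.4 FPKM in AdGFP and between 26.3 and 67.9 FPKM in AdCre, with estimates above 0 for 5 of the 5 tested, and 2 of the 7 listed were below the level for testing. Smooth muscle and pericyte markers had 4 of 6 estimates above 0 and epicardial markers 1 of 6, and their summed ranges (750 to 1267 against 903 to 1151 FPKM, and 115 to 230.0 against 98.7 to 129.9 FPKM) overlapped. With the block, 2 of 6 epicardial markers passed (0 to 4 over its other settings), 0 of 5 macrophage markers passed (0 to 3 over its other settings), and no smooth muscle or pericyte marker passed in any of these settings. Without the block, 0 of the markers of these other cell types passed in limma, and 1 each of the fibroblast, endothelial and epicardial markers had an unadjusted p under 0.05. The counts with the block are to be read against the 6.15% of all genes that the block called. The unadjusted counts without it are to be read against 10.2% of all genes. No marker was at 0 in every sample. The share of these cell types in the levels of the 10 regulators was not tested.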

How the data were processed

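Poly(A)-selected RNA from 3 AdGFP and 3 AdCre samples was sequenced, and the authors deposited FPKM values with 1 column per sample. The submitters' processing notes name fastp, STAR 2.5, HTSeq 0.6.1 and mm10. The annotation release and strand setting are not given in the sources used here. Of the 54532 gene IDs, 54495 were found in GENCODE M21 (GRCm38), which gave symbols, lengths and coordinates.

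FPKM times exon length was a whole multiple of 1 read (tolerance 0.02) for 96.8% of expressed genes at the annotated length and for 99.9% when other lengths were tried, which gave 25.0 to 32.0 M reads (megareads) per sample and 432 to 10106 reads for the 10 genes. Replicates differed beyond counting error (chi-square per degree of freedom 38.8 to 125). Values were tested as log2(FPKM + 0.1) in limma 3.58.1 (R 4.3.3, lmFit, eBayes with trend) over the 13794 genes whose mean reached 0.5 FPKM, with Benjamini-Hochberg adjustment and a threshold of 0.05. Fold changes of low genes are understated on this scale.

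Deviations from group means correlated at 0.568, 0.268 and 0.506 between same-numbered samples and at -0.497 to 0.036 otherwise. The main fit had no block, and a fit with the replicate number as a block is given as an alternative. That pairing rests on the values alone. Alternatives were pseudocounts of 1 and 0.01, other filters, TPM, median centring, quantile normalization, no trend, voom on recovered reads and leaving out each sample. Further settings of the blocked fit and levels at annotated exon length were added after seeing the data. The steps were tested on simulated data.

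The genes named are the 10 regulators, the 5 other regulators with the smallest p and fixed partners. Rras was named after its value was seen. The members and lists were chosen with earlier results of these data known.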

Additional observations from a re-analysis of the deposited data

How the results depend on the processing

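No regulator of the 10 passed under any of the 25 alternatives. Of these, 8 change only the test and leave the estimate as it is. Under the other 17, 148 of 170 estimates kept their direction and 22 reversed, for Sos1, Ptpn11, Shoc2 and Lztr1. With TPM, with or without the block, these were 0.00021, 0.087, 0.033 and 0.0086, where the median of all genes moved from -0.00 to 0.09, so that the estimates moved with the whole table. Ptpn11 was 0.010 when median centred, 0.027 when quantile normalized, 0.058 with voom and 0.060 with voom and the block, and Shoc2 was 0.0052 and 0.0055 with voom without and with the block. Leaving out 1 sample gave ranges of -0.22 to 0.064 for Sos1, -0.12 to 0.10 for Ptpn11, -0.092 to 0.0095 for Shoc2, -0.20 to 0.036 for Lztr1, -0.010 to 0.10 for Nras, -0.0072 to 0.29 for Hras, -0.053 to 0.18 for Mras, -0.059 to 0.31 for Ppp1ca and -0.13 to 0.16 for Ppp1cc. With the block, Sos1 was 0.047, Mras -0.043 and Ppp1cc -0.027 without pair 3, and Ptpn11 was 0.038 without pair 2.

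Without the block, 1 gene passed in the whole table, against 3 with a pseudocount of 1, 0 without a filter, 4 without a trend, 0 with voom and 0 to 2 without 1 sample. The block gave 848 (42.9% above 0), and with it 875 passed on the TPM scale (61.5% above 0), 1735 with voom (57.5% above 0), 17 without a filter, 0 without a trend, 1167 among protein-coding genes, and 772, 149 and 1 without pair 1, 2 or 3. Of the other RAS regulators, 0 passed without the block and 2 with it, 1 with TPM, 3 with voom, 2 among protein-coding genes, 0 without a filter, 0 without a trend, and 1, 0 and 0 without pair 1, 2 or 3. The ratio of exchange factors to GAPs in AdGFP was 0.666 with reads per annotated kilobase, and the Ppp1cb share of the PP1 genes was 19.4% and 15.6% at annotated length. The block changed no call among the 10. The causes were not tested. With 3 samples a group, the intervals given set the precision of each estimate.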
